A study of Mus musculus with 2 samples.

Results

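Summits of NAT10-associated RNA that fell in exons outside titin numbered 740 of the 2020 summits in the list, which is 36.6%. A summit is the single base at which the signal of the pulled-down RNA over the input RNA peaked, and each was counted a single time. The 740 summits were those that the deposited table placed in a numbered exon or in the last exon of exactly 1 gene, leaving out Ttn, the gene of titin, and the mitochondrial chromosome. They lay in 594 peaks and 306 genes. Of these summits, 594 lay in a numbered exon of 215 genes and 146 in the last exon of 102 genes. Another 80 exon summits that overlapped several genes and 8 mitochondrial exon summits were left out.

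The RNA came from hearts of wild-type mice that had received AAV9-cTnT-FLAG-NAT10, a virus that makes FLAG-tagged NAT10 under the cTnT promoter, a promoter of heart muscle cells. The virus was given under the skin at day 1 after birth, and hearts were taken 20 days later. Lysate of about 60 mg of tissue was split into Input (10%) and an anti-FLAG pulldown (RIP), and mRNA of both was sequenced. There was 1 Input and 1 RIP library, both from treated hearts, so no value has a replicate, no test was made, and RNA held by beads or antibody cannot be told apart from RNA held by NAT10. Sequencing depth is unknown, because the table holds no counts.

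NAT10 is the acetyltransferase that makes N4-acetylcytidine in RNA, a mark known from ribosomal and transfer RNA and also reported in messenger RNA. Pulldown of an RNA-binding enzyme without crosslinking recovers whole or partly broken transcripts, so a summit shows where recovered fragments piled up over Input and need not be a contact site. In messenger RNA the last exon usually carries the end of the coding sequence together with the 3' UTR, while numbered exons before it are mostly coding.

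Each summit carries a score deposited by the authors on a -log10 scale. Whether it stands for p or for q is not given. The score rises with enrichment and with abundance, so it is used here only to describe and rank summits within the list. Intervals cover counting error only, and because summits of 1 gene are not independent they are too narrow. Positions are on GRCm38.

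The letters around a summit could be read for 4 of the 740 summits, those that lay inside a RefSeq promoter window on GRCm38.p6 (windows of neighbouring or antisense genes). They are shown because they are the sites at which the RNA sequence under a summit can be seen. Each line gives 61 bases in the direction of the gene's transcript, with the summit base in capitals.
Son exon 2, chr16:91651698-91651758, plus strand: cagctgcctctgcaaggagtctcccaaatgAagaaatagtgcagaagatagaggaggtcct
Pde4dip exon 18, chr3:97747779-97747839, minus strand: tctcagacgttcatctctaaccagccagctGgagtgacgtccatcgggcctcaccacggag
Cmya5 exon 2, chr13:93094597-93094657, minus strand: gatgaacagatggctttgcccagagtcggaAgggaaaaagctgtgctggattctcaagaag
1110002E22Rik exon 1, chr3:138067577-138067637, plus strand: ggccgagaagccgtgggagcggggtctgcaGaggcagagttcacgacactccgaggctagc

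Among these 4 windows the share of C ran from 16.4% in Cmya5 to 34.4% in Pde4dip. The scores were 4.41 for Son, 25.9 for Pde4dip, 5.94 for Cmya5 and 9.21 for 1110002E22Rik. None of the 4 summit bases was a C. With 4 windows, this describes these sites and no more.

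Exon summits scored low against the list as a whole. The median score was 8.71 over the 740 summits, against 12.5 over all 2020. Scores had quartiles of 4.72 and 18.0, 43 summits reached 50, and 200 (27.0%) were under 5. Exon summits in Ttn, by contrast, had a median of 31.2 over 117 summits of that single gene. Intron summits had a median of 7.62 (n = 109) and 3' UTR summits one of 13.3 (n = 680).

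The label of coding exons did not hold for every summit. By GENCODE gene type, 14 summits in 13 genes lay in genes that are not protein coding or have no entry in that release, and 11 of the 14 were last-exon summits. The second highest score of all 740, 471, belonged to the gene ENSMUSG00000065037 on chromosome 9 at 78175468, which the table does not name. Rpph1, the RNA component of the tRNA-processing enzyme RNase P, scored 153. Oip5os1, a long noncoding RNA, scored 45.6. The other 11 scored between 1.79 and 14.8 and included processed pseudogenes such as Phf20-ps.

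Some markers of the labelled tissue were present. Of 15 heart muscle markers, 7 genes had an exon summit, with 87 summits and a median score of 20.7. The remaining genes of that list had no summit of any class. Ryr2 held 52 of the 87, and the 35 outside it had a median of 30.7. Over all protein-coding genes, 1.35% had an exon summit, a share that includes genes not expressed in the heart. Of the markers of other cell types, 1 gene had an exon summit, the fatty acid carrier Fabp4 at 8.29. The endothelial (12 genes), fibroblast (12), mural (10), leukocyte (10), red cell (6) and nerve (8) lists otherwise had no exon summit. In the endothelial list 4 genes had a summit of any class, in the fibroblast list 2 did, and in the mural and leukocyte lists 1 each. No gene of the red cell and nerve lists had one. These counts hold only for the markers listed.

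Summits in the last exon scored higher than those in numbered exons. The median was 13.6 (95% interval 9.50 to 16.1, n = 146) in last exons and 8.21 (7.59 to 9.20, n = 594) in numbered exons, and the intervals do not overlap. A score of at least 50 was reached by 10.3% of last-exon summits (5.87 to 16.4) and by 4.71% of numbered-exon summits (3.15 to 6.74). Of 3' UTR summits, 12.1% reached 50. Without the 27 last-exon summits of Ahnak the last-exon median was 10.9 (8.05 to 15.7), an interval that meets that of numbered exons.

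**Figure D1:**
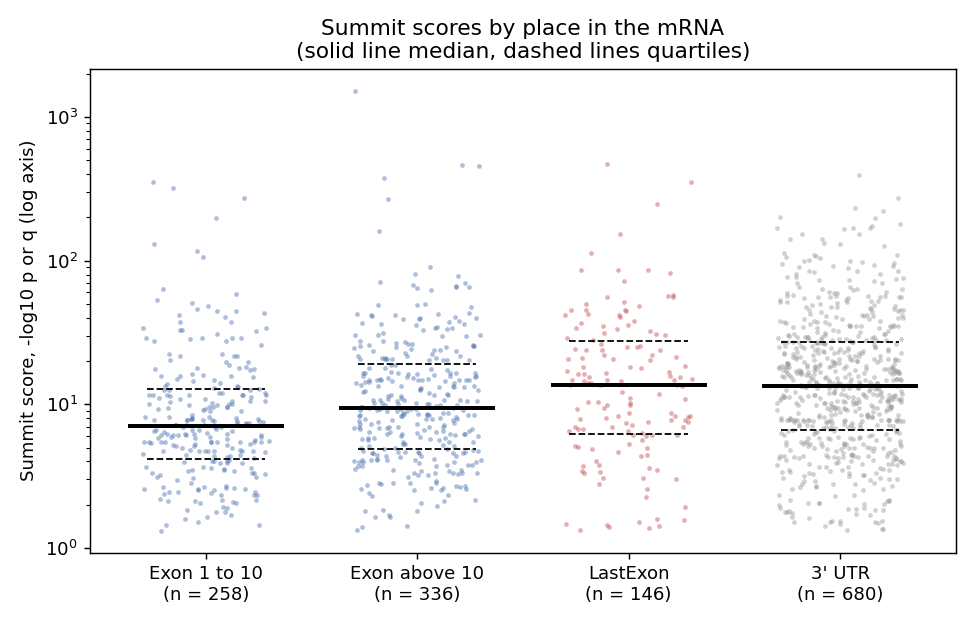
Score of each summit (-log10 p or q, log axis) for exons 1 to 10, exons above 10, last exons and, for comparison, 3' UTRs; points are summits, solid lines medians and dashed lines quartiles. The medians are 7.07, 9.40, 13.6 and 13.3, and the 4 clouds overlap over most of their range.

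The highest last-exon summit in a coding gene was Tnnc1, cardiac troponin C, the calcium sensor of the thin filament, at 351 on chromosome 14 at 31211519. Slc25a4, the ADP/ATP carrier of heart mitochondria, scored 248. Gpi1, the glycolytic enzyme glucose-6-phosphate isomerase, scored 114. Mlycd, which breaks down malonyl-CoA and so affects fatty acid oxidation, scored 57.5. Each of these 4 genes had a single exon summit.

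Between Gpi1 and Mlycd in score came Polr2a, Sf3a2 and Hnrnpa0. Polr2a, the largest subunit of RNA polymerase II, had 3 summits in its last exon, at 86.1, 85.9 and 72.4. That exon encodes the repeat-rich C-terminal domain. Sf3a2, a splicing factor subunit, had last-exon summits of 85.9 and 18.3. Hnrnpa0, an hnRNP protein encoded by 1 exon, scored 81.7. Below Mlycd, Eprs, the glutamyl-prolyl-tRNA synthetase, scored 56.1, and Tuba4a, an alpha-tubulin, 51.7. Hnrnpa0 and Tuba4a have close copies, so their reads may be shared.

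The last-exon label did not always mean coding sequence. In the reference transcript, 8 of the last-exon summits lay in an exon with under 50 coding bases. The last exon of Tnnc1 holds 29 coding bases of 224, and that of Csnk1g2, a casein kinase, 48 of 1340. The table nevertheless places these summits in the exon and not in the 3' UTR. Scores differed little with the coding part: the median was 15.6 (6.97 to 25.0, n = 28) where the last exon held under 150 coding bases and 13.6 (9.86 to 16.1, n = 58) where it held over 1000.

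Numbered exons alone were hit in 204 genes, the last exon alone in 91, and both in 11. A gene with 1 summit cannot be hit in both, and among the 103 genes with 2 or more summits the 11 make up 10.7%. Within those 11 genes the last-exon median was the higher in 8 and the lower in 3. Dsp, desmoplakin, which anchors intermediate filaments at the junctions between heart muscle cells, had last-exon summits of 56.3, 45.7 and 6.35 against a median of 13.3 over its 13 numbered-exon summits. Actn2, alpha-actinin of the Z-disc, scored 22.2 in its last exon against a median of 6.72 in 6 numbered-exon summits. Cluh, an RNA-binding protein that acts on mRNAs of mitochondrial proteins, scored 42.4 against a median of 6.88. In Plec, plectin, a cytoskeletal linker, the medians were closer, 11.1 and 9.73, and its highest summit, 33.9, was in a numbered exon. Ahnak, a giant scaffold protein, had 27 of its 28 summits in the last exon.

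Numbered-exon summits reached exon 101, and their median exon number was 13. Early exons, taken as 1 to 10, held 258 summits, and later exons held 336, or 56.6% (52.5 to 60.6). The median score was 7.07 (6.15 to 7.77) in early exons and 9.40 (8.45 to 10.7) in later ones. In finer bins the median was 6.38 in exon 1, 6.34 in exon 2, 12.5 in exon 3, 6.03 in exons 4 to 5 and 7.33 in exons 6 to 10. It was then 9.37 in exons 11 to 20, 9.29 in exons 21 to 40 and 9.82 above 40. Exon 3 stands out from its neighbours, and it holds all 8 summits of Naca and 9 of Tacc2 among its 40.

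**Figure D2:**
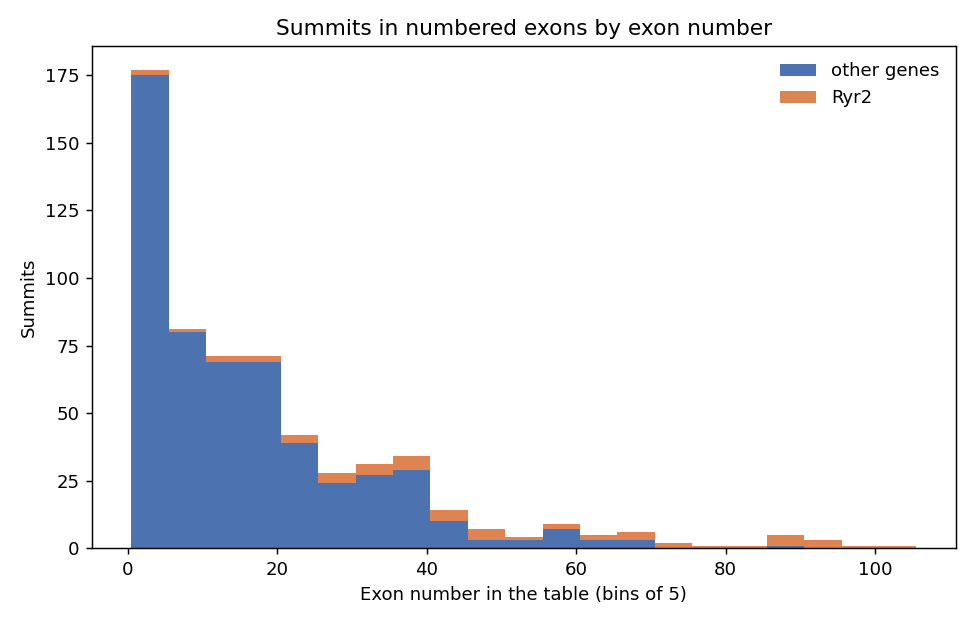
Number of summits in numbered exons by the exon number in the table, in bins of 5, with Ryr2 in orange and other genes in blue. Exons 1 to 5 hold 177 summits, and beyond exon 70 nearly all summits are those of Ryr2.

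The rise with exon number was not seen inside genes. In 32 genes with both early and later numbered-exon summits, the later median was the higher in 18 and the lower in 14. Exons were also split by whether the middle of their coding part lay before or after the midpoint of the coding sequence. The reference transcript was used, and all summits of an exon went to the same side, so places inside long exons were not resolved. By this split 48 genes had summits in both parts. The second part had the higher median in 24 of them and the lower in 24. Exon number itself depends on how many exons a gene has, and by the relative place of the exon the medians were 7.87 (6.97 to 8.98) early and 8.98 (7.56 to 10.5) late.

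At the low end of exon numbers, the 3 highest scores in exon 1 were 44.5 in Ehd4, a protein of endocytic membrane traffic, 43.2 in Pafah1b1, the dynein regulator LIS1, and 28.9 in Rp9. In the reference transcript, exon 1 of Pafah1b1 holds no coding bases. The same holds for the exons of 11 numbered-exon summits in all, some of which may belong to another transcript. At the high end, Ryr2 had summits in exon 101 (9.82), exon 97 (3.24) and exon 94 (11.5).

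A few genes held many of the exon summits. While 203 genes had 1 summit each, 16 genes had 8 or more and together held 283 summits, 38.2% of all. These were mostly large muscle and scaffold genes, and long transcripts offer more exons in which a summit can fall.

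Ryr2, the calcium release channel of the sarcoplasmic reticulum that triggers each heartbeat's contraction, had the most, with 52 summits in 49 exons from exon 2 to exon 101. Its scores ran from 2.55 to 160 with a median of 16.0. The highest lay in exon 90, on chromosome 13 at 11594849, and that exon, 1298 bases long in the reference transcript, held 2 more summits at 49.8 and 25.0. The next were exon 69 at 89.9 and exon 92 at 80.6. Summits in exons centred before the midpoint of its coding sequence had a median of 17.8 (n = 30). Those in exons centred after it had a median of 13.1 (n = 22), although its 3 highest summits were among them. Across 30 genes of calcium handling and ion channels, 6 had an exon summit, with 88 summits at a median of 12.4, and the 36 outside Ryr2 had one of 10.3. Over all protein-coding genes the share with an exon summit was 1.35%, including genes not expressed in the heart. The gene lists were chosen with earlier results of these data known, so this count and those of the lists below are descriptions. Pde4dip, myomegalin, a scaffold that binds a phosphodiesterase, had 21 in 21 different exons between 3.09 and 42.6. Atp2a2, the calcium pump SERCA2, had 3, at 28.3, 11.6 and 1.82.

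Myh6, the alpha heavy chain of cardiac myosin, held the highest score, 1524, in exon 26 on chromosome 14 at 54950479. It had 19 summits in 19 exons, and the next were exon 36 at 463, exon 15 at 457, exon 21 at 377 and exon 22 at 269. The lowest was 5.71 in exon 32, and exon 27, next to the highest, scored 10.3. Its median, 48.0, was above that of Ryr2. The paralog Myh7 has no line in the table, and reads shared by the 2 genes may have been placed in either.

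Of 40 sarcomere genes, 13 had an exon summit, with 68 summits and a median of 13.4 against 8.71 over all exon summits. Without the 19 of Myh6, the other 49 had a median of 9.18. Mybpc3, myosin-binding protein C, had 4, at 62.2, 58.4, 15.7 and 3.94. Ldb3, a Z-disc protein, had 63.9 in exon 10 and 3.45. Myom2, the M-band protein myomesin 2, had 10 between 2.13 and 46.1, the highest in exon 5.

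**Figure D3:**
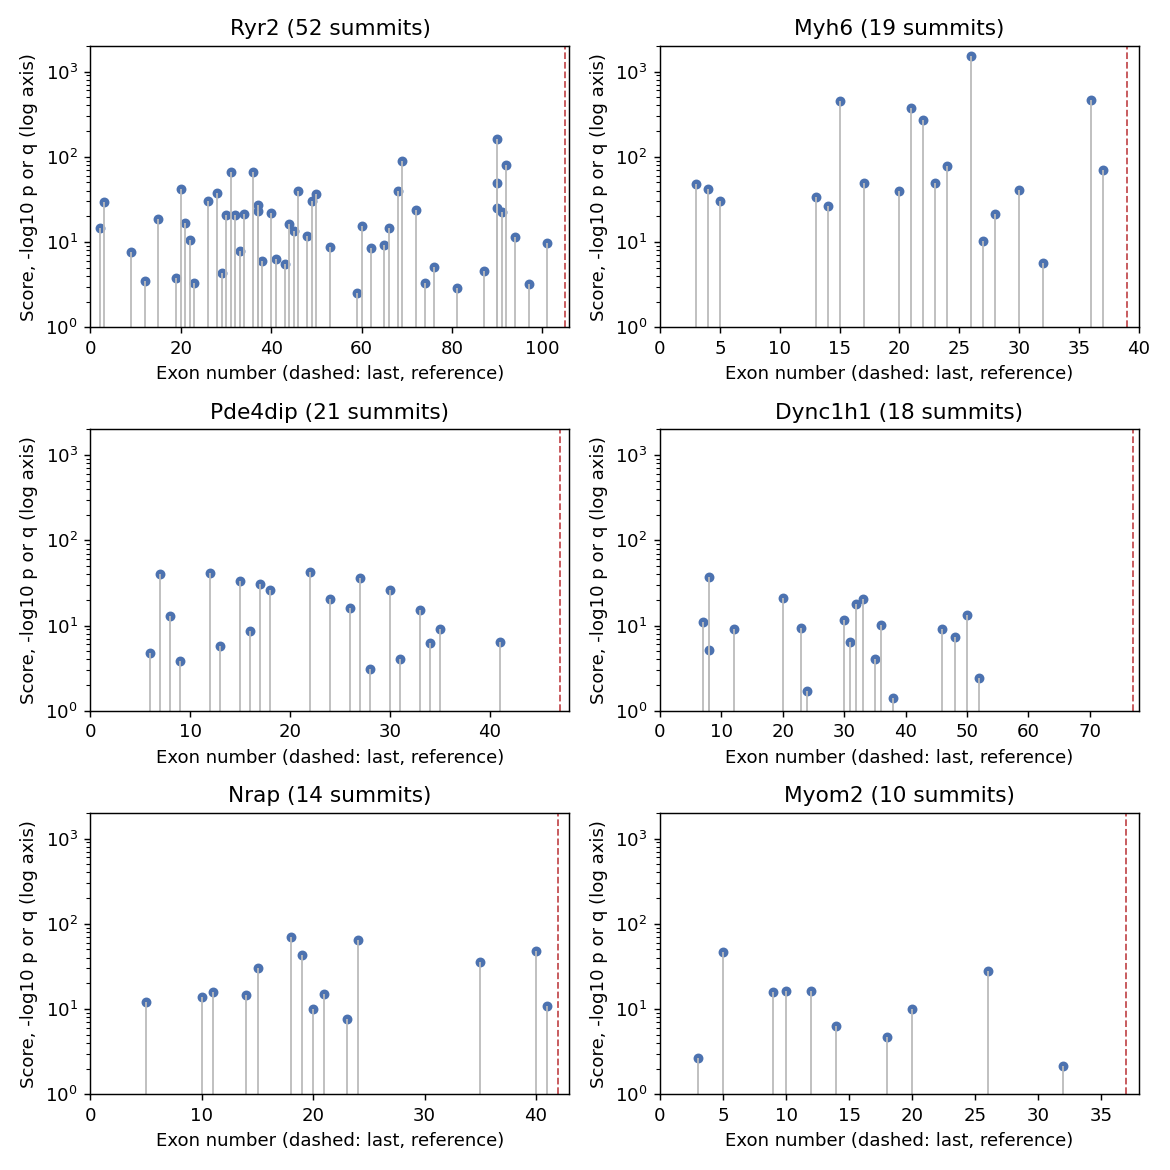
Score (-log10 p or q, log axis) of each summit against its exon number in 6 genes with 10 or more summits spread over many exons; the dashed line is the last exon of the reference transcript. Myh6 rises to 1524 in exon 26 and Ryr2 to 160 in exon 90. Only numbered exons are drawn. None of the 6 genes has a summit labelled as last exon, a label that does not count 3' UTR summits.

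In other genes the summits crowded into a single very long exon. In Ahnak 27 summits, from 1.47 to 44.9, were spread along a last exon of 17498 bases. Cmya5, myospryn, a muscle scaffold at the costamere, had 14 of its 16 summits in exon 2, which is 9310 bases long. Tacc2, a centrosome and microtubule protein, had 9 of 13 in exon 3, and Macf1, an actin and microtubule crosslinker, 8 of 13 in exon 36. Dst, dystonin, a plakin related to Macf1, had 11 of 19 in exon 36, between 2.52 and 25.5. Naca had all 8 in exon 3, of 5916 bases, the exon that is included in the muscle form of this nascent-chain protein. Its scores were 350, 319, 272, 198, 116, 17.6, 8.93 and 3.12, so 5 were high and 3 low within the same exon. The highest score in the long exons of the other 5 genes was 44.9.

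**Figure D4:**
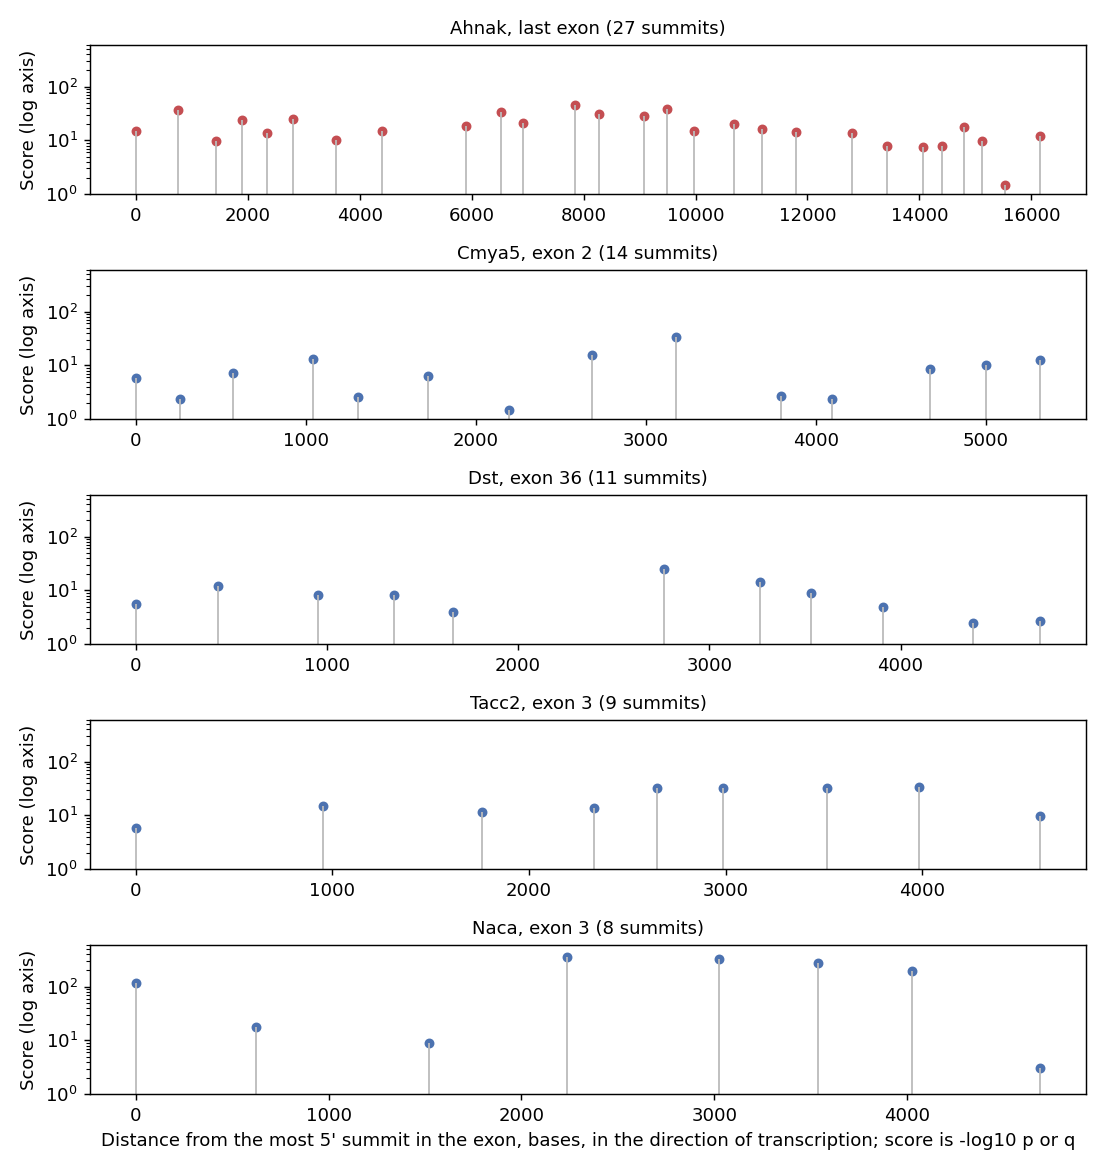
Score (-log10 p or q, log axis) of each summit in 5 long exons against its distance in bases from the most 5' summit of that exon, in the direction of transcription; red is a last exon, blue a numbered exon. Naca reaches 350, while the 27 summits of Ahnak lie between 1.47 and 44.9 along the whole exon.

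Of 32 giant scaffold, plakin and spectrin genes, 14 had an exon summit, with 151 summits and a median of 10.8. Nrap, which links actin to the cell junction in muscle, had 14 in 14 exons between 7.63 and 70.4, the highest in exon 18. Sptbn1, beta-spectrin, had 9 between 4.02 and 38.2. Dync1h1, the heavy chain of cytoplasmic dynein, had 18 between 1.41 and 37.3 and led the transport genes, of which 8 of 25 had an exon summit at a median of 8.43. Clasp1, a microtubule-end protein, scored 8.59.

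Of 51 chromatin and transcription genes, 13 had an exon summit (25 summits, median 11.6). Ppargc1b, a coactivator of genes for mitochondrial metabolism, scored 105 in exon 5, and Smarca4, the BRG1 remodelling ATPase, 66.0 in exon 12. Of 35 splicing and speckle genes, 8 were hit (15 summits, median 7.20). Son, a nuclear speckle scaffold, scored 130 in its long exon 3, Luc7l3 27.4 and Rbm25 19.6. Of 37 chaperone, ubiquitin and autophagy genes, 8 were hit with 1 summit each (median 18.8), led by Usp34, a deubiquitinase, at 67.2, the chaperone Hsp90ab1 at 50.5 and Hspa8 at 35.8.

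Of 50 genes of fuel metabolism, 14 were hit with 23 summits, Slc25a4, Gpi1 and Mlycd among them, at a median of 5.45. Of 27 translation genes, 8 were hit (17 summits, median 8.93), and after Naca came Eef1a2, the elongation factor form of muscle and nerve, at 21.5 and Eif5b, which joins ribosomal subunits, at 18.8. Of 22 intercalated disc and costamere genes, 4 were hit (12 summits, median 4.08), led by Svil, supervillin, at 39.2, Tln1, talin, at 11.4 and Lmo7 at 4.45. Of 35 nuclear genes of the respiratory chain and mitochondrial import, 5 were hit, the highest being Timm44 at 17.0, Ndufa2 at 16.4 and Cox5a at 8.18. In insulin, AKT, FOXO and mTOR signalling 2 of 25 were hit, Pik3r1 at 5.50 and Irs1 at 4.02. None of 31 cytosolic ribosomal protein genes had an exon summit. For comparison, 293 of 21770 protein-coding genes in GENCODE had one (1.35%), a share that includes genes not expressed in the heart and genes of all lengths, so the list counts are descriptions. Nat10 itself, the bait, scored 5.28 in exon 24 and 2.85 in exon 4, where RNA of the construct may also align.

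Short exons held fewer summits than their share of the coding sequence. Exons under 150 bases held 21.1% of 691 summits (18.1 to 24.4) and 29.7% of the coding bases of the same genes, weighted by summit, a ratio of 0.71. Exons of 150 to 300 bases held 28.7% of summits and 29.5% of bases. Those over 300 and up to 1000 bases held 17.8% against 12.9%, and those over 1000 bases 32.4% against 27.9%. These length groups include last exons, sorted by their full length with the UTR, while only coding bases enter the shares. Of all exon summits given an exon length, 137 of 233 over 1000 bases and 97 of 129 over 300 and up to 1000 were in numbered exons. The groups therefore overlap with the last-exon share. The last exon held 18.1% of summits (15.3 to 21.2) against 12.2% of coding bases, a ratio of 1.49. The base count leaves out the UTR part of the last exon, which may also have drawn summits labelled as last exon. Exons whose coding part was centred in the final 25% of the coding sequence held 19.2% of summits against 22.6% of bases. That ratio of 0.85 turned to 1.23 with 1 summit per gene. Whole exons were assigned, so this group is not exactly the final 25%.

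These lengths come from the Ensembl canonical transcript, whose exon numbers are not always those of the table. Of 433 neighbouring summit pairs, the spacing matched that transcript in 366. The 11 summits in exon 36 of Dst, for example, spread over more bases than the 129 of that exon in the canonical transcript. With the transcript that best matched the spacing, a choice made after seeing the data that matched 432 pairs, the short-exon ratio was 0.52. In genes whose pairs all matched the canonical transcript it was 0.55. BWA mem, named in the study's design, does not join reads across introns, which bears on short exons, and its part in the result was not tested.

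**Figure D5:**
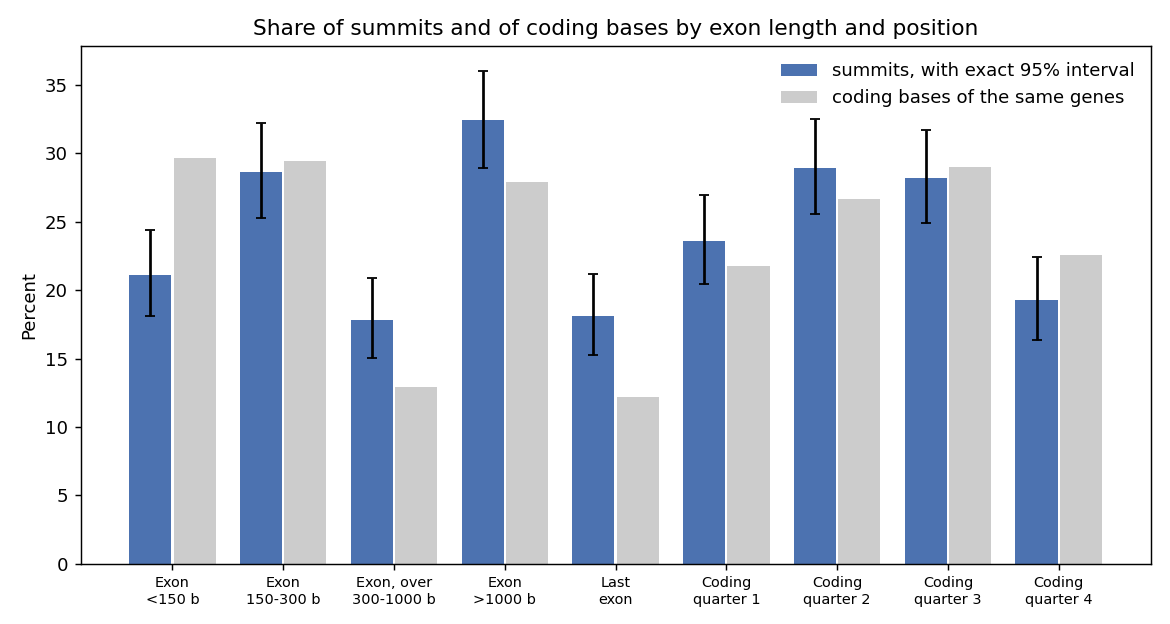
Percent of 691 summits (blue, bars with exact 95% intervals) and of coding bases of the same genes (grey) by exon length in bases (b), in the last exon and in 4 equal stretches of the coding sequence, on the canonical transcript. Summits fall below the bases in exons under 150 bases, 21.1% against 29.7%. They lie above them in exons over 300 and up to 1000 bases, in exons over 1000 bases (32.4% against 27.9%) and in last exons. The length groups include last exons, so they overlap with the last-exon bars.

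Scores by exon length differed between all exon summits and numbered exons alone. Over both classes the median was 8.41 in exons under 150 bases, 9.25 at 150 to 300, 8.05 over 300 and up to 1000 and 8.93 above 1000. In numbered exons alone it was 9.18 (7.77 to 10.1) at 150 to 300 bases and 6.22 (5.45 to 8.46) above 1000. Exons with a summit were longer. Pooled over genes, internal, fully coding exons had a median of 192 bases with a summit (n = 425) and 131 without (n = 4004). Within genes, the exon median was longer with a summit in 148 of 170. A longer exon offers more bases in which a summit can fall, so this direction is largely given in advance and shows no preference for long exons.

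Since NAT10 acetylates cytidine, the base makeup of these exons was also compared. Exons with a summit had a median GC of 52.9% and the others 50.6%, with GC higher in 102 of 170 genes. The C share gave no single direction: its median was 23.9% in both sets, and it was higher with a summit in 71 of 170 genes, but pooled over all bases of these exons it was 26.0% with a summit and 24.9% without. Among exons of 100 to 200 bases, pooled C was 23.1% with a summit and 24.5% without, G was 29.1% against 26.3%, and T was 19.0% against 21.8%. Exons, not the bases under summits, were compared here, on the canonical transcript.

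Some genes with an exon summit also had a 3' UTR summit, and there the highest exon summit usually scored lower. Of 566 genes with a 3' UTR summit, 483 had none of these exon summits. Of the 306 genes, 83 (27.1%) also had a 3' UTR summit, and the highest exon summit was below the highest 3' UTR summit in 64 of them and above in 18. The medians of these highest scores were 10.7 and 28.2. In Myom2 the 3' UTR reached 233 against 46.1 in its exons, in Pde4dip 197 against 42.6, and in Ahnak 165 against 44.9. Ryr2 was an exception, with 160 in exon 90 against 127 in its 3' UTR. A gene with several exon summits has more chances of a high one, yet in the 32 genes with 1 summit of each kind the exon was the higher in 7.

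Summits were mostly apart from each other. Neighbouring exon summits of a gene lay a median of 1374 bases apart on the genome (434 pairs) and 446 bases apart within the same exon (160 pairs), and 8 pairs were within 200 bases. Peaks with several summits held 233 of the 740 (31.5%). In 10 cases the same peak also had a 3' UTR summit, and 9 of those 10 were last-exon summits.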

How the data were processed

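RIP and Input RNA of mouse hearts, with 1 library of each, were compared by the authors, who deposited 1 table of summits. The tools named are fastp, BWA 0.7.12, MACS2 2.1.0 and HOMER, per the submitters' processing notes. The score is a -log10 p-value or q-value deposited by the authors, and which of these is not given. The notes name GRCm39, but all 723 exon summits matched by symbol lay inside their RefSeq gene on GRCm38, so positions are given on GRCm38.

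Computed here, with Python 3.11.15, pandas 2.3.3 and scipy 1.17.1, were medians with exact binomial intervals, shares with exact Clopper-Pearson 95% intervals, and exon lengths by exon number from GENCODE vM39. The canonical or longest coding transcript was used. Depth is unknown, and no test was made.

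Genes named in the text were those of the 12 highest numbered-exon and 10 highest last-exon summits, genes with 8 or more summits, Nat10, up to 3 per list, those at the ends of the exon numbers, and the 5 genes with both classes that had most summits; a few others serve as examples and were chosen after their values were seen. Some genes that this rule names are left out of the text. The summits and the 13 gene lists were chosen with earlier results of these data known. Ratios to coding bases, position along the coding sequence and exon base makeup were added after seeing the data. The base-share and interval steps were tested on simulated data. Choosing a transcript by summit spacing did not recover as many simulated exon lengths as the bound set for it, so it serves only as an alternative, and some of its exon lengths may belong to another transcript.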

Additional observations from a re-analysis of the deposited data

How the results depend on the processing

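No paired analysis was possible because there was 1 Input and 1 RIP library and no result comes from a test. Of 83 alternative values of 10 results, 53 stayed inside the interval of the reported value and 30 did not. Leaving out Nat10, Ryr2 (the gene with most summits) or Myh6, merging summits within 200 bases, adding summits in several genes, or keeping protein-coding genes only moved none outside. Keeping scores at or above the median of the exon summits raised medians by construction, to 16.5 in numbered, 23.9 in last, 15.9 in early and 17.1 in late exons. It gave a last-exon share of 23.5%, a late share of 63.6% and an exon share of summits of 42.1%, against 47.5%. At the upper quartile the medians were 32.8, 35.8, 33.2 and 32.1 and the shares 29.7%, 66.2% and 38.1%. Medians above a score threshold are cut by that threshold, so they do not bear on differences between the classes. With the strongest summit per gene, the last-exon share was 32.0%, the late share 37.5%, the late median 11.6 and the exon share 27.3%. The late share was 70.2% with early up to exon 5, 32.7% up to exon 20, and 38.1% by relative place, where the early median was 7.87. The short-exon ratio was 0.52 with the transcript chosen by summit spacing, 0.55 in genes whose pairs all matched, 0.49 with the strongest summit per gene and 0.54 in genes with under 8 summits. The last-exon ratio was 2.09 and 2.06 in the last 2 settings. The ratio of exons centred in the final 25% of coding sequence reversed there, to 1.23 and 1.06. The ratio settings and the restriction to coding genes were chosen after seeing the data. The cause was not tested. Depth is unknown, so no limit of detection can be given.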
